A study of Homo sapiens with 9 samples.

Results

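KRT8, KRT18, KRT19, KRT20, KRT23 and KRT80 are keratin genes of intestinal and other simple epithelia, and they are described here across 9 RNA-seq libraries of HCT116, an established human colorectal cancer line. They were taken by symbol from the deposited count table, and all 6 were found once among 38407 gene rows with a symbol. The labels give every library the genotype WT and put 3 in each of 3 groups. In shCTRL DMSO a control short hairpin RNA was combined with DMSO, and in shSLC6A3 DMSO a hairpin to SLC6A3, the dopamine transporter gene, was combined with DMSO. In shCTRL VXN the control hairpin was combined with VXN, an abbreviation that no label spells out. Hairpin sequence, dose, time and the number of cultures per group are not stated, so p-values measure the spread between libraries, which may be technical.

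The authors also deposited 2 tables of fold changes, named for V against D under the control hairpin and for shDAT against shCTRL under D. Their columns do not follow the labels. A rerun of DESeq2 gave all 38907 p-values of each table within 1e-06 when V stood for replicate 3 of shCTRL DMSO, replicate 1 of shSLC6A3 DMSO and replicate 3 of shCTRL VXN. In that rerun DAT stood for replicates 1 and 2 of shCTRL DMSO and replicate 1 of shCTRL VXN, and D for replicates 2 and 3 of shSLC6A3 DMSO and replicate 2 of shCTRL VXN. These trios are called the V, DAT and D libraries below. They name the sides of the authors' own contrasts, and what each culture received is not inferred from them.

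Keratins build the intermediate filaments of epithelial cells. A type I chain pairs with a type II chain to form them. In colon epithelium KRT8 is the main type II chain, with KRT18 and KRT19 as its usual type I partners, while KRT20, a type I chain, is known from the differentiated cells of the upper crypt and surface. KRT23 is a further type I chain, and KRT80 is a type II chain found in many epithelia and known to lie near desmosomes.

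On GRCh38 with GENCODE v29, both type II genes and KRT18 lie on chromosome 12. KRT8 spans 52897187 to 52949954 on the minus strand, KRT18 spans 52948871 to 52952901 on the plus strand, and KRT80 spans 52168996 to 52192000 on the minus strand. The other type I genes lie on the minus strand of chromosome 17: KRT20 at 40875941 to 40885227, KRT23 at 40922696 to 40937634 and KRT19 at 41523617 to 41528308. KRT18 is thus the type I gene that sits next to a type II gene, and the exons of KRT8 and KRT18 overlap by 525 bases on opposite strands. Exons of KRT23 overlap by 186 bases those of AC004231.1, also on the opposite strand. The library kit does not mark strand, so reads from these overlaps cannot be told apart.

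Over the whole coding sequence of the GENCODE v29 transcripts KRT8 and KRT80, the other type II chain, share 66.4% of aligned bases, and the type I members share between 58.5% and 65.7% with each other. Pairs of a type I with a type II member share between 58.8% and 61.7%, which lies within the range of the type I pairs.

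Totals ran from 30.25 M (1e6) counts in shCTRL VXN replicate 1 to 60.22 M in shSLC6A3 DMSO replicate 2. SLC6A3, the gene the hairpin targets, had between 0 and 6 counts in every library, too few to check the labels. The epithelial identity was plain: all 13 epithelial markers listed, among them EPCAM and CDH1, reached a mean of 1 CPM (counts scaled to a library size of 1e6), and they summed to between 1558 and 2411 CPM. Markers of leukocytes and endothelium summed to at most 2.03 CPM and neuroendocrine markers to at most 1.36 CPM. The colonic identity was partial, since 9 of 33 intestinal differentiation markers reached 1 CPM and FABP1, PHGR1 and TFF3 had no count in any library. In bulk RNA, fewer cells of a type and less RNA per cell cannot be told apart.

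HCT116 expressed a simple-epithelial keratin set in which 3 genes took nearly all counts. KRT8, KRT18 and KRT19 made up between 99.2% and 99.4% of the counts of the 6 keratins, and the 6 together took between 0.372% and 0.426% of a library. Per kilobase of the principal transcript, the median level was 983.6 CPM per kilobase for KRT8 (929.8 to 1074), 706.7 for KRT18 (617.9 to 785.1) and 631.1 for KRT19 (558.9 to 774.2). KRT8 lay above KRT18 and KRT19 in that measure without overlap, whereas the ranges of KRT18 and KRT19 overlapped. Scaled instead by all annotated exons, of which KRT8 has 6881 bases against 1882 in its principal transcript, the order turned to 375.5 for KRT19, 343.0 for KRT18 and 269.0 for KRT8, so the order of the top 3 depends on the length used.

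The other 3 stood far below. Per kilobase of the principal transcript, median levels were 7.644 CPM per kilobase for KRT23 (6.033 to 8.906), 2.23 for KRT80 (1.26 to 5.554) and 0.6505 for KRT20 (0.2922 to 1.311). KRT23 and KRT80 did not overlap on this scale, whereas with all annotated exons KRT23 ran from 4.131 to 6.098 and KRT80 from 1.117 to 4.927. KRT80 and KRT20 overlapped on both scales. KRT20, the differentiation keratin of the upper crypt, rested on between 21 and 104 counts per library.

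**Figure D1:**
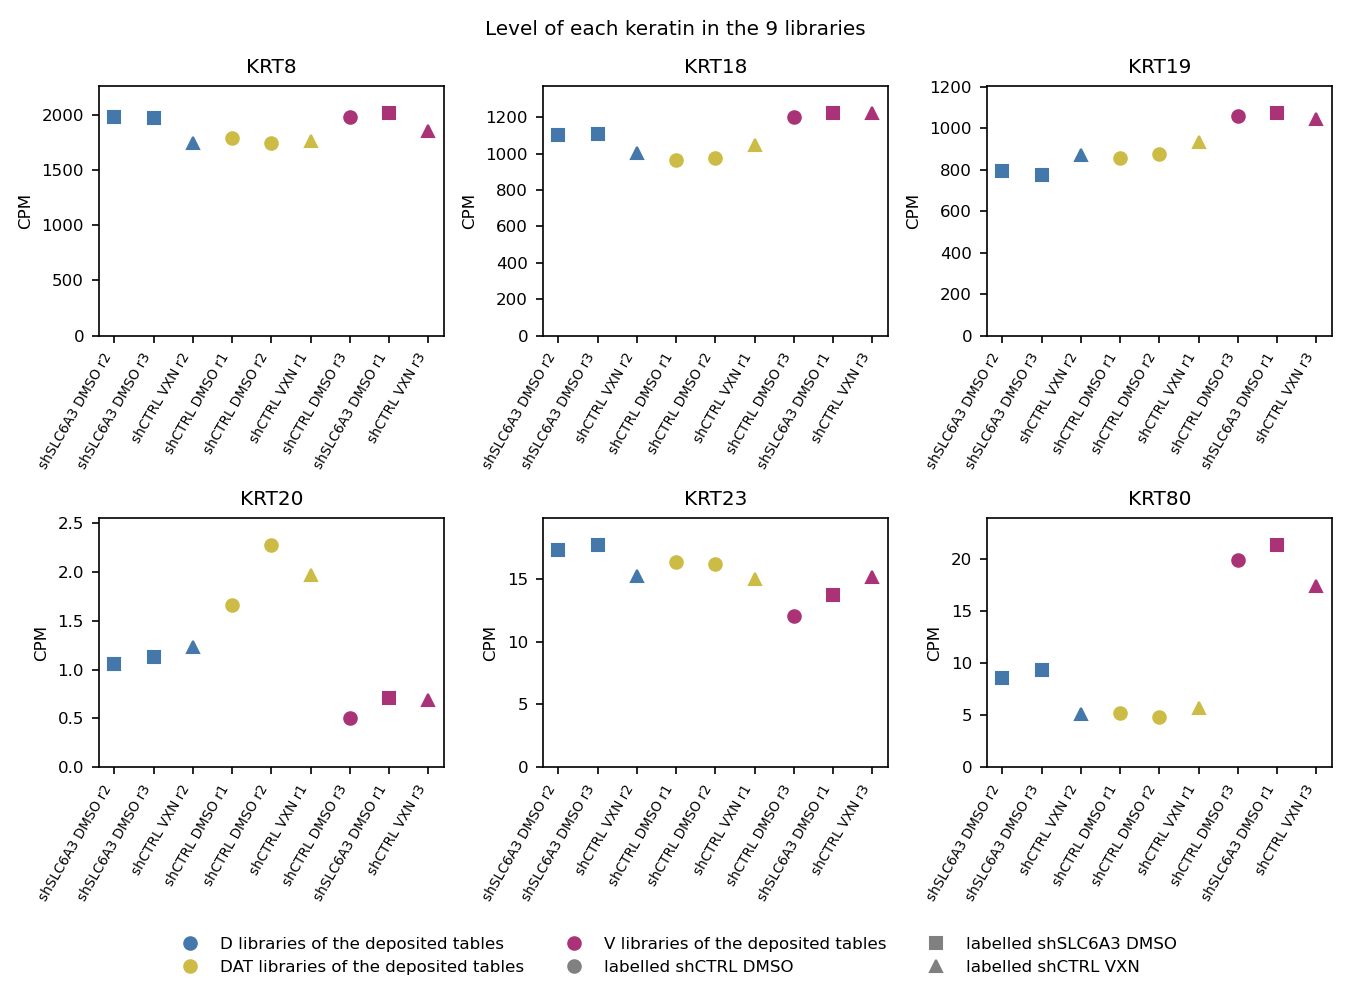
Each panel plots 1 keratin, with the level in CPM on the vertical axis and 1 point for each of the 9 libraries along the horizontal axis. Colours mark the side of the deposited tables (D, DAT, V) and shapes the labelled group (r1 to r3 are replicates 1 to 3). KRT80 runs from 17.45 to 21.43 CPM in the V libraries and reaches at most 9.327 CPM elsewhere, and KRT20 is below 0.71 CPM in the V libraries and above 1.05 CPM elsewhere.

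KRT80 and KRT20 differed most between the libraries relative to their levels. KRT80, the minor type II chain, ranged 4.41 times from lowest to highest. Replicates 1 to 3 of shCTRL DMSO held 5.274, 4.861 and 19.99 CPM. It stood at 21.43, 8.604 and 9.327 CPM in shSLC6A3 DMSO and at 5.697, 5.148 and 17.45 CPM in shCTRL VXN. Thus 1 library of each labelled group was high, the 2 remaining shSLC6A3 libraries were intermediate, and 4 libraries were low.

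KRT20 ranged 4.486 times from lowest to highest. It stood at 1.662, 2.277 and 0.5075 CPM in shCTRL DMSO, at 0.7056, 1.059 and 1.13 CPM in shSLC6A3 DMSO and at 1.964, 1.233 and 0.6878 CPM in shCTRL VXN. The 3 libraries highest in KRT80 were the lowest in KRT20. At these counts the counting error alone was between 9.81% and 21.8% of a value.

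KRT19, which partners KRT8, stood at 856.7, 877.3 and 1060 CPM in shCTRL DMSO, at 1076, 792.2 and 776.9 CPM in shSLC6A3 DMSO and at 933.6, 870.8 and 1048 CPM in shCTRL VXN. Its lowest values were those of shSLC6A3 DMSO replicates 2 and 3. KRT18 stood at 965.1, 977.7 and 1204 CPM in shCTRL DMSO, at 1226, 1104 and 1108 CPM in shSLC6A3 DMSO and at 1048, 1003 and 1224 CPM in shCTRL VXN. For both genes the V libraries were the highest of the 9.

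KRT8, the common type II chain, varied least, by 1.155 times. It stood at 1788, 1750 and 1983 CPM in shCTRL DMSO, at 2021, 1985 and 1973 CPM in shSLC6A3 DMSO and at 1764, 1750 and 1851 CPM in shCTRL VXN. All 3 libraries labelled shSLC6A3 and shCTRL DMSO replicate 3 lay above 1950 CPM. KRT23 stood at 16.32, 16.16 and 11.99 CPM in shCTRL DMSO, at 13.69, 17.28 and 17.7 CPM in shSLC6A3 DMSO and at 14.96, 15.19 and 15.15 CPM in shCTRL VXN. Its lowest values were those of shCTRL DMSO replicate 3 and shSLC6A3 DMSO replicate 1.

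In the authors' contrast of V with D, KRT80 and KRT19 were higher and KRT20 and KRT23 lower in the V libraries. These are 4 of 6 keratins, and the authors' deposited table calls 44.0% of the 24274 features that have an adjusted p (21.4% higher, 22.7% lower), so the share of keratins called lies near a background that is itself very high. KRT80 averaged 19.62 ± 2.016 CPM in the V libraries and 7.693 ± 2.234 CPM in the D libraries (SD, n = 3 each), and the authors' deposited table gives a shrunken log2 fold change of 1.27 (SE 0.20, DESeq2 adjusted p = 7.78e-11). KRT19 averaged 1061 ± 14.31 against 813.3 ± 50.36 CPM, with a log2 fold change of 0.36 in the authors' deposited table (SE 0.06, DESeq2 adjusted p = 1.07e-08). The first is a type II chain present at a low level and the second a type I chain among the most abundant.

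KRT20 averaged 0.6337 ± 0.1096 CPM in V and 1.14 ± 0.08736 CPM in D, and the authors' deposited table gives -0.76 (SE 0.27, DESeq2 adjusted p = 0.00473). KRT23 averaged 13.61 ± 1.584 against 16.72 ± 1.343 CPM, with -0.31 in the authors' deposited table (SE 0.11, DESeq2 adjusted p = 0.014). Both are type I chains, so type I members moved in both directions. The KRT20 call held in all 6 DESeq2 reruns that each left out 1 library, but its adjusted p rose to between 0.0134 and 0.0493. The KRT23 call is more fragile. It was lost in the DESeq2 rerun without shCTRL DMSO replicate 3 (adjusted p = 0.125), without shSLC6A3 DMSO replicate 1 (adjusted p = 0.0637), without shSLC6A3 DMSO replicate 2 (adjusted p = 0.0752) and without shSLC6A3 DMSO replicate 3 (adjusted p = 0.0904).

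The pair KRT8 and KRT18 did not pass the threshold in that table. KRT18 averaged 1218 ± 12.61 CPM in V and 1071 ± 59.71 CPM in D, and the authors' deposited table gives 0.16 (SE 0.07, DESeq2 adjusted p = 0.0516). KRT18 did pass in edgeR on the same trios (adjusted p = 0.0155) and in DESeq2 without shSLC6A3 DMSO replicate 3 (adjusted p = 0.0471). KRT8 averaged 1952 ± 88.96 against 1903 ± 132.3 CPM, with 0.01 in the authors' deposited table (SE 0.07, DESeq2 adjusted p = 0.938), and its sign turned when either replicate 1 of shSLC6A3 DMSO or replicate 2 of shCTRL VXN was left out. In CPM the V and D libraries did not overlap for 5 of the 6 keratins, all but KRT8, beside 54.4% of all features with an adjusted p. For KRT23 the gap was narrow, with 15.15 CPM in shCTRL VXN replicate 3 (V) and 15.19 CPM in shCTRL VXN replicate 2 (D). With RLE factors in place of TMM factors, both stood at 15.11 CPM. V did not overlap the 6 other libraries for KRT18, KRT19, KRT20 and KRT80, beside 47.6% of features.

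Between DAT and D, the keratins did not pass the threshold in the authors' deposited table, where 5 of the 6 have an adjusted p and 0 are called, beside 6.62% of 10403 features. By the unadjusted p of DESeq2, fitted across all features, 11.4% of 38907 features fall below 0.05, and KRT20, which has no adjusted p, and KRT80 are among them. edgeR on the same trios called 0 features. KRT80 averaged 5.277 ± 0.4181 CPM in DAT and 7.693 ± 2.234 CPM in D, with -0.39 in the authors' deposited table (SE 0.25, DESeq2 adjusted p = 0.0528). KRT20 averaged 1.968 ± 0.3074 against 1.14 ± 0.08736 CPM, with 0.56 in the authors' deposited table (SE 0.30). It was the 1 keratin of 6 whose DAT and D libraries did not overlap, beside 22.0% of the 10403 features with an adjusted p. Having no adjusted p, KRT20 itself lies outside that background. For KRT8, KRT18, KRT19 and KRT23 the authors' deposited table gives -0.09, -0.10, 0.08 and -0.05, with DESeq2 adjusted p of 0.206, 0.184, 0.211 and 0.533. Both deposited tables use the same D libraries as their control, so their values are not independent.

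One D library decides that outcome. shCTRL VXN replicate 2 stood at 5.148 CPM for KRT80, 1750 CPM for KRT8 and 870.8 CPM for KRT19, near the DAT libraries, while shSLC6A3 DMSO replicates 2 and 3, the other D libraries, stood apart from both. Without it, the DESeq2 rerun of DAT against D called 5 of the 6 keratins, beside 34.9% of 22454 features (13.8% higher, 21.1% lower). D then holds only shSLC6A3 DMSO replicates 2 and 3, and no DAT library carries that label. The library was singled out after its values were seen, and leaving it out narrows the spread within D. The p-values of that rerun, here and below, are therefore given as a description only. The reruns are not shrunken, so they are read against a rerun on all libraries, which gives -0.57 for KRT80 (DESeq2 adjusted p = 0.0621), -0.13 for KRT8 and KRT18, 0.10 for KRT19 and 0.76 for KRT20 and calls 0 keratins. Without the library KRT80 was lower in DAT by a log2 fold change of -0.81 (SE 0.12, adjusted p = 1.23e-09), KRT8 by -0.20 (SE 0.04, adjusted p = 3.61e-05) and KRT18 by -0.19 (SE 0.04, adjusted p = 0.000119).

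KRT20 was higher by 0.81 in the same DESeq2 rerun (SE 0.29, adjusted p = 0.0168) and KRT19 by 0.14 (SE 0.04, adjusted p = 0.00654). KRT23 had -0.18 and did not pass (adjusted p = 0.166). For KRT20 the doubtful library does not sit with DAT: its 1.233 CPM lay next to the 1.059 and 1.13 CPM of the other D libraries and below the lowest DAT value of 1.662 CPM. In V against D, leaving shCTRL VXN replicate 2 out gave 4 keratins called beside 45.3% of features (22.1% higher, 23.1% lower), with KRT80 at 1.09 (adjusted p = 1.31e-20), KRT19 at 0.40 (adjusted p = 7.17e-18), KRT20 at -0.82 (adjusted p = 0.0206) and KRT23 at -0.40 (adjusted p = 0.000288) in DESeq2. The unshrunken rerun on all libraries gives 1.32, 0.36, -0.87 and -0.32 for these 4.

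**Figure D2:**
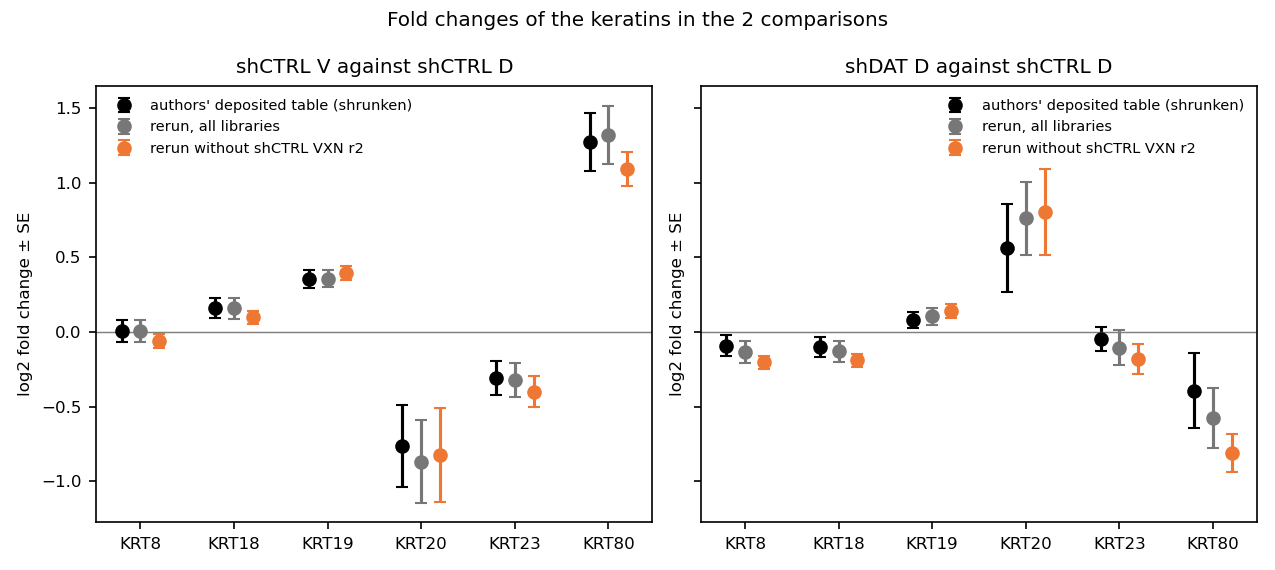
Log2 fold changes with their standard errors (vertical axis) are plotted for the 6 keratins (horizontal axis), V against D on the left and DAT against D on the right. Black points are the shrunken values of the authors' deposited tables, grey points an unshrunken DESeq2 rerun on all libraries and orange points the same rerun without shCTRL VXN replicate 2. In DAT against D, KRT80 has -0.39 deposited, -0.57 in the rerun on all libraries and -0.81 without that library, and no keratin changes sign there.

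By the labels, no keratin passed the threshold, neither for the hairpin to SLC6A3 nor for VXN. edgeR called 0 of 6 members for shSLC6A3 DMSO against shCTRL DMSO, beside 0.0% of 20402 features (unadjusted p below 0.05 for 4.56%, DESeq2 0 features). For shCTRL VXN against shCTRL DMSO it also called 0 of 6, beside 0.0098% of features (unadjusted p below 0.05 for 1.88%, DESeq2 18 features). DESeq2 was run on all rows, without edgeR's filter on low counts. The labelled groups overlapped for all 6 keratins in both comparisons, beside 8.84% and 6.32% of features whose groups did not.

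KRT80 had the widest spread within groups relative to its level. Its labelled means were 10.04 ± 8.617 CPM in shCTRL DMSO, 13.12 ± 7.208 CPM in shSLC6A3 DMSO and 9.432 ± 6.951 CPM in shCTRL VXN (SD, n = 3 each), with edgeR log2 fold changes of 0.39 (adjusted p = 0.999) and -0.09 (adjusted p = 1.0). Each labelled group holds 1 V library, and the SDs exceed the differences between the means. KRT20 averaged 1.482 ± 0.8984, 0.9648 ± 0.2272 and 1.295 ± 0.6406 CPM in the same order, with edgeR log2 fold changes of -0.62 (adjusted p = 0.999) and -0.21 (adjusted p = 1.0).

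The remaining 4 keratins had edgeR log2 fold changes between -0.08 and 0.13. KRT8 averaged 1840 ± 125.2, 1993 ± 24.75 and 1788 ± 54.89 CPM, with edgeR log2 fold changes of 0.11 for the hairpin (adjusted p = 0.996) and -0.04 for VXN (adjusted p = 1.0). KRT18 had 0.13 and 0.06, KRT19 -0.08 and 0.03, and KRT23 0.13 and 0.03, with edgeR adjusted p of at least 0.999. These values describe 3 libraries against 3 with a V library on each side, and a p above the threshold does not show that the groups are alike.

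Ratios between keratins within a library do not depend on its total count. KRT19 counts were between 0.8556 and 0.8973 of KRT18 counts in 7 libraries. In shSLC6A3 DMSO replicates 2 and 3 they were 0.7177 and 0.7012. Both are type I partners of KRT8, so the makeup of the type I pool differed in these 2 libraries. The third D library, shCTRL VXN replicate 2, had 0.8685.

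KRT8 counts were between 1.512 and 1.648 times those of KRT18 in the V libraries and between 1.683 and 1.852 times in the other 6. The groups did not overlap, though shCTRL VXN replicate 1, at 1.683, lay close to the V range. KRT80 counts exceeded those of KRT20 by between 25.37 and 39.38 times in the V libraries, by 8.127 and 8.254 times in shSLC6A3 DMSO replicates 2 and 3, and by between 2.135 and 4.176 times in the remaining 4. Set against 1000 counts of KRT8, KRT80 had between 9.427 and 10.61 in V, 4.334 and 4.728 in those 2 libraries and between 2.778 and 3.23 in the rest.

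**Figure D3:**
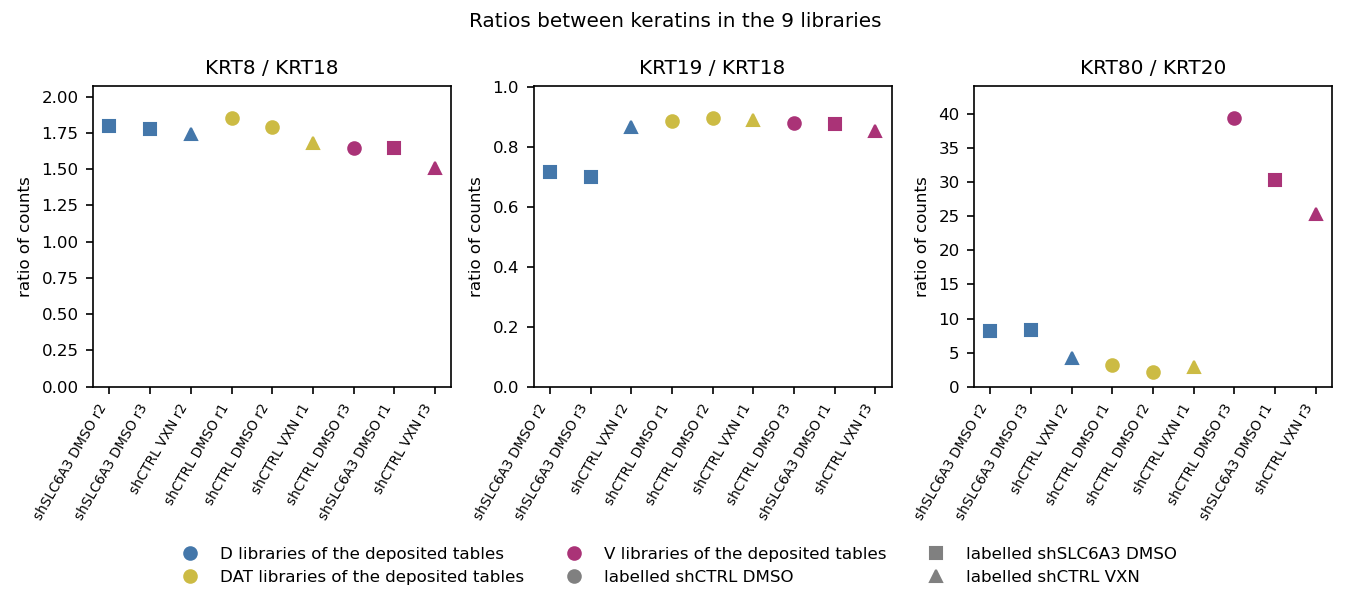
Count ratios between pairs of keratins (vertical axes) are plotted for the 9 libraries (horizontal axis), coloured by the side of the deposited tables and shaped by the labelled group. The KRT19 to KRT18 ratio sets shSLC6A3 DMSO replicates 2 and 3 apart from the other 7 libraries, and the KRT80 to KRT20 ratio sets the 3 V libraries apart.

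The V libraries also differed in markers of dividing cells. The authors' deposited table calls all 6 cycle markers lower in V than in D, beside 22.7% of all features. Their median log2 fold change is -2.52, beside -0.00158 over all features. MKI67, a proliferation marker, stood at 62.2 to 74.4 CPM in V and 518 to 610 CPM elsewhere. The same libraries were the highest in KRT18, KRT19 and KRT80 and the lowest in KRT20, whereas for KRT8 and KRT23 they overlapped the other 6. Whether the cycle markers bear on the keratins was not tested.

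Of 49 other keratin genes, 6 reached a mean of 1 CPM and 7 had no count in any library. Where V was set against D, the authors' deposited table calls 7 of them higher and 4 lower out of 18 with an adjusted p, beside 21.4% of all features higher and 22.7% lower. KRT7, a simple-epithelial type II keratin uncommon in colon, stood at 6.458, 5.714 and 20.86 CPM in shCTRL DMSO, at 21.43, 12.77 and 13.23 CPM in shSLC6A3 DMSO and at 7.072, 5.655 and 20.55 CPM in shCTRL VXN. It shows the same 3 levels as KRT80: high in V, intermediate in shSLC6A3 DMSO replicates 2 and 3, low elsewhere. Its log2 fold change for V against D in the authors' deposited table is 0.88 (SE 0.25, DESeq2 adjusted p = 0.000309).

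KRT7 was also the 1 other keratin called for DAT against D, among 3 of the 49 with an adjusted p and beside 6.62% of all features, at -0.53 in the authors' deposited table (SE 0.31, DESeq2 adjusted p = 0.0467). The unshrunken DESeq2 rerun on all libraries gives -0.75 and no call (adjusted p = 0.0548), and that without shCTRL VXN replicate 2 gives -1.07 (adjusted p = 1.51e-22). The call was lost without shSLC6A3 DMSO replicate 2 or 3 (adjusted p = 1.0 in both), and the reruns without 1 of the DAT libraries gave no adjusted p. KRT15, a basal-cell type I keratin, ran from 31.87 to 34.84 CPM in V and from 21.78 to 26.81 CPM elsewhere, with 0.53 in the authors' deposited table for V against D (SE 0.08, DESeq2 adjusted p = 3.61e-10). KRT10, a type I keratin of differentiating epidermis, ran from 49.62 to 51.65 CPM in V and from 36.04 to 41.14 CPM elsewhere, with 0.33 in that contrast of the authors' deposited table (SE 0.08, DESeq2 adjusted p = 9.24e-05). KRT222, a keratin-like gene, was lower in V, at 3.224 to 3.771 CPM against 4.235 to 5.496 CPM, with -0.35 in the authors' deposited table (SE 0.14, DESeq2 adjusted p = 0.0199). The KRT222 call was lost without shCTRL DMSO replicate 3 (adjusted p = 0.0667), without shCTRL VXN replicate 3 (adjusted p = 0.121) and without shSLC6A3 DMSO replicate 3 (adjusted p = 0.0972) in DESeq2.

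KRT16, KRT34 and KRT81 were also higher in V, from a low level. KRT16, induced in wounded epidermis, ran from 2.417 to 2.73 CPM in V and from 0.1146 to 0.5893 CPM elsewhere, with 3.22 in the authors' deposited table for V against D (SE 0.42, DESeq2 adjusted p = 1.01e-14). KRT34, a hair type I keratin, ran from 1.161 to 1.861 CPM in V and from 0.1008 to 0.3821 CPM elsewhere, with 3.53 in the authors' deposited table (SE 0.46, DESeq2 adjusted p = 2.23e-14). KRT81, a hair type II keratin, ran from 2.149 to 2.646 CPM in V and from 0.2293 to 0.8739 CPM elsewhere, with 1.78 in the authors' deposited table (SE 0.35, DESeq2 adjusted p = 1.55e-07). These 3 rest on 6 to 127 counts per library, and all have close paralogs among the keratins. The sequence they share with them was not measured, so their values are uncertain.

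**Figure D4:**
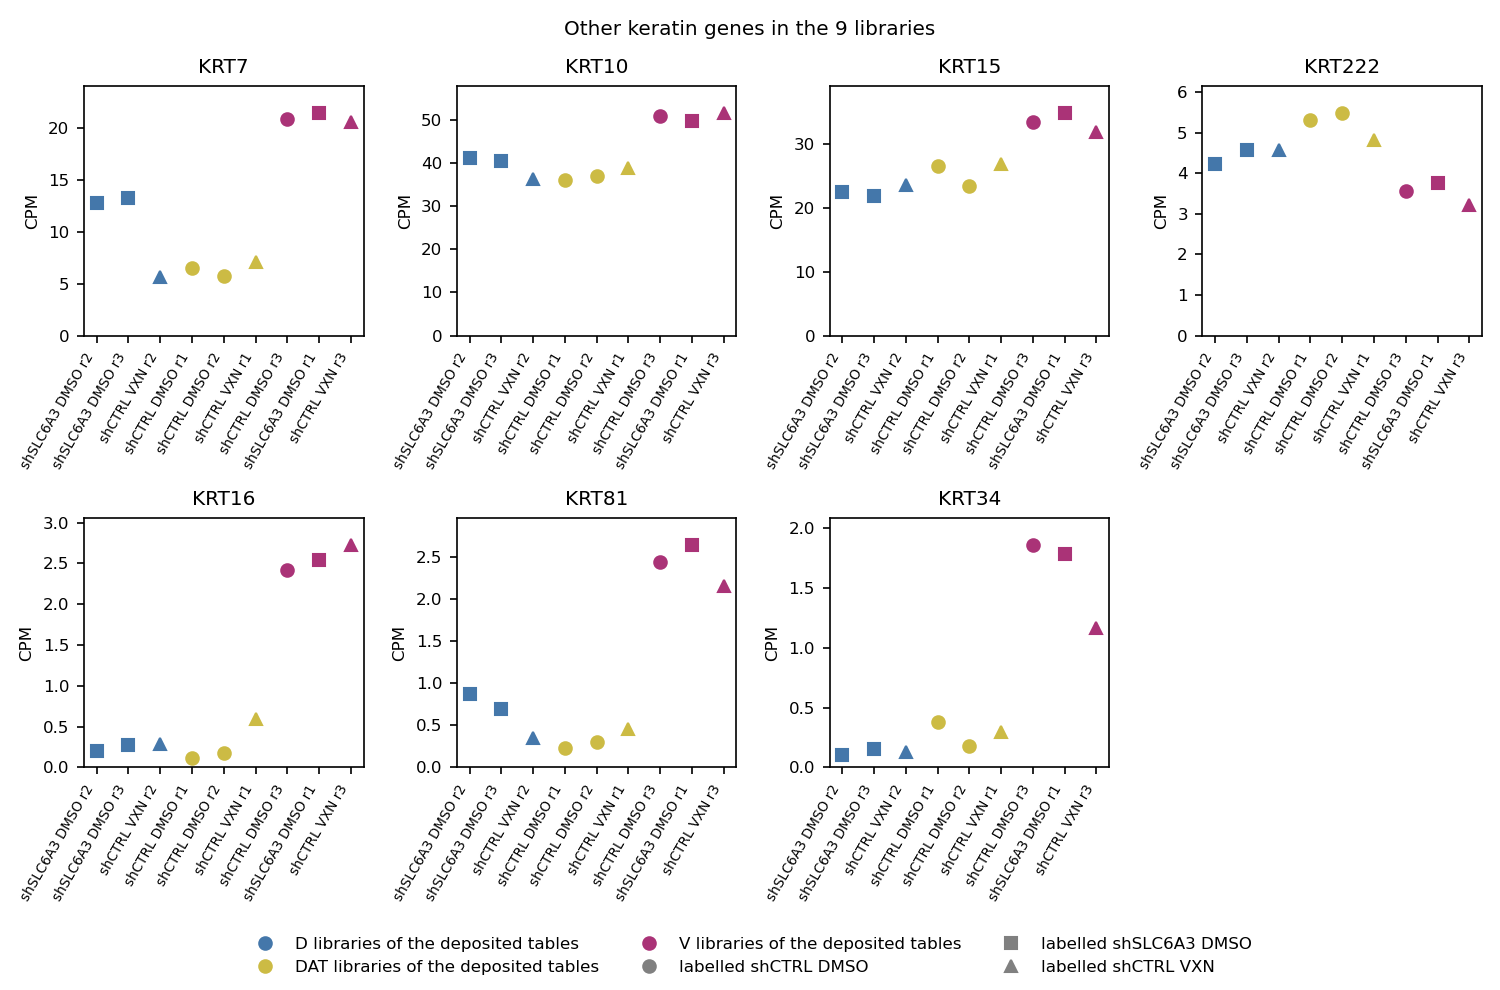
Levels of 7 other keratins in CPM (vertical axes) are plotted for the 9 libraries (horizontal axis), coloured by the side of the deposited tables and shaped by the labelled group. KRT7 lies between 20.55 and 21.43 CPM in V and at 12.77 and 13.23 CPM in shSLC6A3 DMSO replicates 2 and 3, and KRT222 alone of the 7 is lowest in V.

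Genes that anchor or accompany keratin filaments were called in both directions in V, as features were in general. Of 26 filament partners and junction genes, 24 had an adjusted p, and the authors' deposited table for V against D calls 8 higher and 6 lower, beside 21.4% and 22.7% of all features. Their median log2 fold change is 0.07, beside -0.00158 over all features. PLEC, which links keratin filaments to hemidesmosomes, ran from 1977 to 2036 CPM in V and from 843.9 to 1107 CPM elsewhere, with 1.07 in the authors' deposited table (SE 0.09, DESeq2 adjusted p = 2.95e-29). SFN, a 14-3-3 protein of epithelia, ran from 413.9 to 422.5 CPM in V and from 214.2 to 229.3 CPM elsewhere, with 0.92 in the authors' deposited table (SE 0.05, DESeq2 adjusted p = 3.93e-71). The nuclear filament genes moved the other way, with -2.58 for LMNB1 (SE 0.14, DESeq2 adjusted p = 2.61e-73) and -1.43 for LMNB2 (SE 0.10, DESeq2 adjusted p = 1.42e-44) in the authors' deposited table. Both are lamins of the nuclear envelope, not partners of keratin in the cytoplasm.

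In DAT against D the authors' deposited table calls 0 higher and 2 lower of 23 such genes with an adjusted p, beside 6.62% of all features, FAM83H at -0.34 (SE 0.11, DESeq2 adjusted p = 0.0215) and LMNB2 at -0.30 (SE 0.11, DESeq2 adjusted p = 0.0295). FAM83H is known to organise keratin filaments. In the DESeq2 reruns both calls were present only without shCTRL VXN replicate 2 among the 6 that each left out 1 library, and without it 9 were higher and 8 lower of 24, beside 13.8% and 21.1% of all features.

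Intestinal differentiation genes are the setting in which KRT20 is known. The authors' deposited table for V against D calls 1 higher and 3 lower of 16 with an adjusted p, out of 33 listed, beside 44.0% of all features called. CA2, a carbonic anhydrase of surface colonocytes, ran from 9.329 to 11.39 CPM in V and from 30.52 to 33.98 CPM elsewhere, with -1.64 in the authors' deposited table (SE 0.09, DESeq2 adjusted p = 7.91e-71), the same direction as KRT20. KLF5, a factor of crypt cells, had 0.46 (SE 0.09, DESeq2 adjusted p = 4.89e-07) and EHF, an epithelial ETS factor, -0.58 (SE 0.11, DESeq2 adjusted p = 1.27e-06) in the authors' deposited table. HPGD, a prostaglandin-degrading enzyme, was below 0.55 CPM in every library and had -2.72 (SE 0.93, DESeq2 adjusted p = 0.00122) in the authors' deposited table. Without shCTRL VXN replicate 2 the count became 5 higher and 4 lower of 18, beside 45.3% of all features called.

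For DAT against D the authors' deposited table calls 0 of 8 intestinal genes with an adjusted p, beside 6.62% of all features called. The rerun without shCTRL VXN replicate 2 called 5 higher and 1 lower of 15, beside 34.9% of all features called. KLF4, a factor of differentiating colonocytes, then had 1.25 (SE 0.05, DESeq2 adjusted p = 1.03e-113) and ELF3, an epithelial ETS factor, 1.36 (SE 0.09, DESeq2 adjusted p = 2.24e-46). KLF4 stood at 54.57 and 51.02 CPM in shSLC6A3 DMSO replicates 2 and 3, at 76.63 to 78.64 CPM in V and at 125.9 to 133.6 CPM in the other 4 libraries. KRT20 followed another order, with its lowest levels in V.

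Of 13 epithelial markers, the authors' deposited table calls 7 higher and 1 lower in V than in D, beside 21.4% and 22.7% of all features. CDH1, the adhesion protein E-cadherin, ran from 212.3 to 234.6 CPM in V and from 101.0 to 107.6 CPM elsewhere, with 1.04 in the authors' deposited table (SE 0.07, DESeq2 adjusted p = 8.33e-54). ESRP1, an epithelial splicing factor, had 1.11 there (SE 0.07, DESeq2 adjusted p = 5.14e-50) and PRSS8, a membrane protease, 1.48 (SE 0.08, DESeq2 adjusted p = 2.92e-74) in the authors' deposited table. Without shCTRL VXN replicate 2 the DESeq2 rerun called 7 higher and 4 lower, beside 22.1% and 23.1% of all features. Between DAT and D, 1 epithelial marker of 13 is called, beside 6.62% of all features, in the authors' deposited table, the membrane protease ST14 at -0.50 (SE 0.17, DESeq2 adjusted p = 0.0252). In the reruns that each left out 1 library, ST14 was called only without shCTRL VXN replicate 2.

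Squamous markers, which could accompany KRT16, summed to between 85.99 and 129.1 CPM, highest in V. SERPINB5 and KRT10 alone of the 8 with a row reached 1 CPM, and both are called higher in V among 3 with an adjusted p, SERPINB5 at 0.48 in the authors' deposited table (SE 0.08, DESeq2 adjusted p = 3.58e-09). Fibroblast markers summed to between 19.19 and 47.8 CPM, of which COL1A1 was the 1 gene to reach 1 CPM, and 0 of 3 are called for V against D. Of the leukocyte and endothelial markers, the authors' deposited table calls 0 higher and 1 lower of 7, CSF1R, which was below 0.64 CPM in every library, and 0 of 1 neuroendocrine marker. These counts for V against D stand beside 44.0% of all features called, 21.4% higher and 22.7% lower. The CSF1R call was present in 3 of the 6 DESeq2 reruns that each left out 1 library, and it was lost without shCTRL DMSO replicate 3 (adjusted p = 0.0733), shCTRL VXN replicate 2 (adjusted p = 0.267) or shSLC6A3 DMSO replicate 1 (adjusted p = 0.0963). For DAT against D the authors' deposited table calls 0 of 2 squamous markers and 0 of 1 fibroblast marker with an adjusted p. It also calls 0 of 6 cycle markers, beside 6.62% of all features. No leukocyte, endothelial or neuroendocrine marker has an adjusted p there, so none could be called. The rerun without shCTRL VXN replicate 2, in which 5 keratins were called, also called other markers, beside 34.9% of all features. In it 4 of 6 cycle markers were lower in DAT, among them CCNB1 at -0.32 (DESeq2 adjusted p = 4.26e-08) and TOP2A at -0.30 (DESeq2 adjusted p = 1.82e-05). Both squamous markers with an adjusted p were lower too, KRT10 at -0.17 and SERPINB5 at -0.15, while COL1A1 was higher at 0.77 (DESeq2 adjusted p = 0.000232), and CSF1R and VWF, both of which stayed below 1.2 CPM, were the 2 of 4 leukocyte and endothelial markers called, both higher. What part such markers have in the keratin values was not tested.

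The genes most alike to each keratin were ranked by Pearson's r of log2(CPM + 1) over the 9 libraries, among about 9057 genes with a mean of at least 10 CPM. The libraries fall into a few sets of close replicates, so r mainly ranks how genes differ between those sets, and it is given as a description. For KRT80 the closest were RNF14, PARVA and ATF6, each with r = 0.997. PARVA, an adaptor at focal adhesions, stood at 86.7 to 102.3 CPM in V, at 48.8 and 51.4 CPM in shSLC6A3 DMSO replicates 2 and 3 and at 33.93 to 35.56 CPM elsewhere. For KRT18 they were TMED9 (r = 0.997), PPP2CB (r = 0.995) and MAGT1 (r = 0.992), and for KRT8 IQCB1 (r = 0.986), ANXA2 (r = 0.983) and KIFBP (r = 0.981). For KRT19 they were ZNF558 (r = 0.993), TTLL3 (r = 0.992) and CYP20A1 (r = 0.992), genes that, like KRT19, were lowest in shSLC6A3 DMSO replicates 2 and 3. For KRT20 they were PLS3 (r = 0.978), FAM3C (r = 0.969) and PLOD2 (r = 0.968), and for KRT23 STX2 (r = 0.958), MEN1 (r = 0.945) and CCDC117 (r = 0.941).

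KRT8 and KRT18 are known for many processed pseudogenes, and the count table holds 51 rows named KRT8P, 68 named KRT18P and 5 named KRT19P. Of all windows of 50 bases in the principal transcript, 37.1% for KRT8 and 47.6% for KRT18 also occur in transcripts of other genes, against 1.79% for KRT19, 4.95% for KRT23, 0.42% for KRT80 and 0.0% for KRT20. Matches on either strand were counted, so not all of this is pseudogene sequence. Of the 720 such KRT18 windows, 326 occur in KRT8, whose exons overlap those of KRT18 on the opposite strand. All 96 such KRT23 windows occur in AC004231.1, which overlaps it in the same way. Counts on pseudogene rows were small beside the parent. They summed to between 1.853% and 2.539% of KRT8, between 1.153% and 1.467% of KRT18 and between 0.2647% and 0.3443% of KRT19. The highest single rows were KRT8P36, KRT18P28 and KRT19P1. The sums for KRT18 and KRT19, as a share of the parent, were lowest in the libraries labelled shCTRL VXN. In CPM, and in either direction, 3.29% of all features have labelled VXN libraries that do not overlap the other 6. How the counting treated reads that fit several genes is not stated, which leaves the KRT8 and KRT18 levels uncertain in that respect. The KRT20 transcript shares no such window, but its level rests on between 21 and 104 counts per library.

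**Figure D5:**
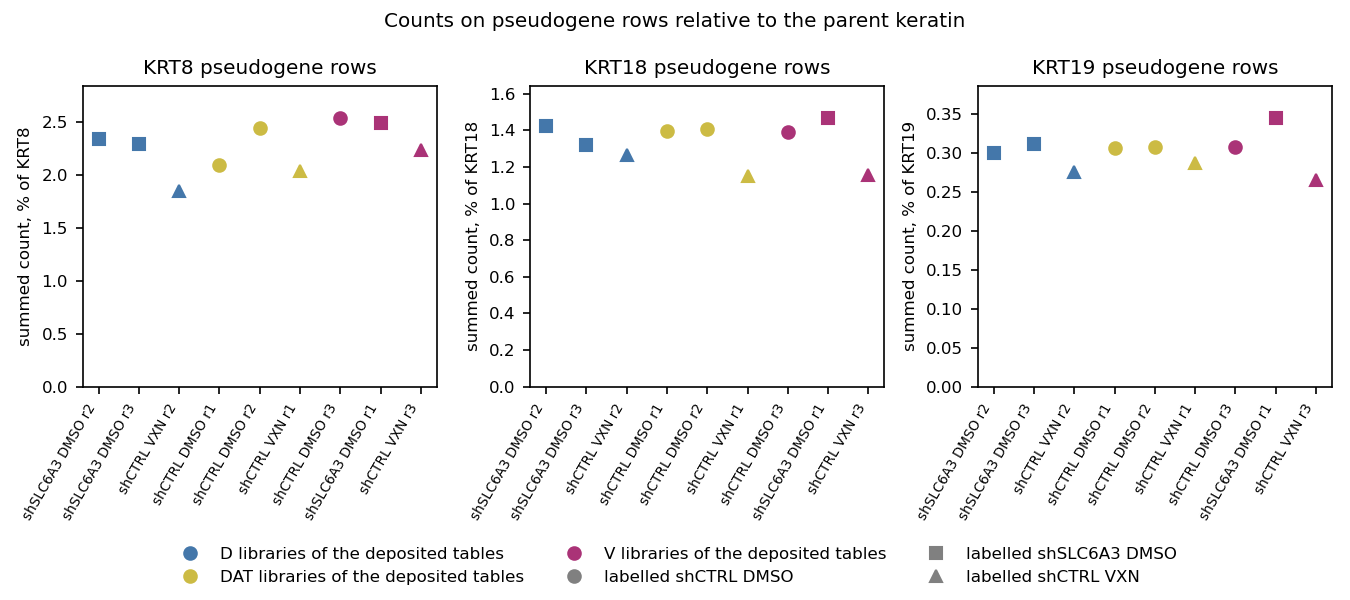
Summed counts on the pseudogene rows of KRT8, KRT18 and KRT19, as a percentage of the parent gene's count (vertical axes), are plotted for the 9 libraries (horizontal axis), coloured by the side of the deposited tables and shaped by the labelled group. The KRT18 rows lie between 1.153% and 1.267% in the libraries labelled shCTRL VXN and between 1.321% and 1.467% in the other 6.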

How the data were processed

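RNA of 9 HCT116 libraries was made into TruSeq RNA v2 libraries and sequenced by Illumina, per the labels' protocols. Trimming with fastp 0.20.1, quality control with FastQC 0.11.9, alignment with STAR to GRCh38 and DESeq2 1.34.0 are named per the submitters' processing notes. The counting program, not given in the sources used here, has no stated annotation either. The authors deposited unnormalised counts per gene and repeat subfamily. The log2 fold changes, p-values and base means (a signal, the mean of normalised counts) deposited by the authors come from DESeq2, per the file headers.

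CPM was computed with TMM factors from those counts. The main test of the labels was edgeR's quasi-likelihood test (edgeR 4.0.16 in R 4.3.3), over 20402 features that passed a filter on low counts. The alternative was DESeq2 1.42.0 on all rows, without that filter and with the program's own filtering. Both used Benjamini-Hochberg adjustment, and an adjusted p below 0.05 was called. The fits were tested on simulated data. DESeq2 was rerun on the trios of the deposited tables, leaving out each library in turn. All 6 keratins passed the edgeR filter. Named besides them are keratins with a mean of at least 1 CPM, up to 4 called members per list by adjusted p, and the 3 most alike genes. The members, trios and lists were chosen with earlier results of these data known. Replicate numbers do not pair the libraries: same-numbered deviations correlated between -0.888 and 0.981. Positions and transcripts are from GENCODE v29 on GRCh38. The depth of between 30.25 and 60.22 M (1e6) counts leaves counting errors small except for genes with few counts, among them KRT20, KRT16, KRT34 and KRT81.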

Additional observations from a re-analysis of the deposited data

How the results depend on the processing

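Alternatives that left out 1 library set the limits of these comparisons. For V against D, the features called ranged from 9142 to 11462 and the keratins called from 3 to 4, and the KRT8 log2 fold change ranged from -0.060 to 0.047, at -0.010 without shSLC6A3 DMSO replicate 1 and -0.060 without shCTRL VXN replicate 2. For DAT against D, the features called were 426 with TMM size factors, 0 in edgeR and 0 to 7830 with 1 library left out, against 689 deposited, and the keratins called were 0 to 5. The 7830 and the 5 are those without shCTRL VXN replicate 2; without shCTRL DMSO replicates 1 or 2 they were 3 and 1 features.

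For labelled VXN, 2 features were called, 18 in DESeq2 and 0 with no low-count filter, with only the 2 groups, with the replicate block or with any 1 library left out. The replicate block called 0 features and 0 keratins in both labelled comparisons, and the numbers do not pair the libraries. No setting called a keratin by the labels. With 1 library left out, signs turned for labelled shSLC6A3 in KRT19 (-0.25 to 0.024), KRT23 (-0.0013 to 0.24) and KRT80 (-0.16 to 1.37). For labelled VXN they turned in KRT8 (-0.077 to 0.016), KRT18 (-0.034 to 0.17), KRT19 (-0.047 to 0.13), KRT20 (-0.63 to 0.23), KRT23 (-0.10 to 0.10) and KRT80 (-0.89 to 0.90). The cause was not tested. The leave-one-out counts for lists and other keratins, and the length of the principal transcript, were chosen after seeing the data. Spearman's rho in place of Pearson's r kept 4 of the 18 most alike genes among the top 3 (1 for KRT8, 1 for KRT19, 2 for KRT20). Depth limits KRT20, KRT16, KRT34 and KRT81.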

Other observations

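By the labels, 2 features were called in edgeR for VXN, both microRNA rows and both named here after their values were seen. MIR6797 had 133, 89 and 101 counts in shCTRL DMSO, 131, 107 and 106 in shSLC6A3 DMSO and 9, 16 and 18 in shCTRL VXN, with an edgeR log2 fold change of -2.82 (adjusted p = 0.0441). MIR6856 had 25, 23 and 20 counts, 25, 22 and 24 counts, and 1, 1 and 2 counts in the same order, with -3.89 in edgeR (adjusted p = 0.0441). Both calls were absent whenever 1 library was left out.

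Some keratin pseudogene rows were also lowest in the libraries labelled shCTRL VXN, which the keratins themselves were not. These rows were picked after their values were seen. In CPM, and in either direction, 3.29% of all features have labelled VXN libraries that do not overlap the other 6, which is a different measure from counts per parent count. KRT8P39, with 134 counts over all libraries, went the other way. It had 0.1968 to 0.3342 counts per 1000 counts of KRT8 in shCTRL VXN and 0.08731 to 0.1877 in the other 6 libraries. KRT8P45 had 1.614, 1.914 and 1.901 counts per 1000 counts of KRT8 in shCTRL DMSO, 1.823, 1.481 and 1.514 in shSLC6A3 DMSO and 0.9839, 0.9942 and 1.115 in shCTRL VXN, with an edgeR log2 fold change of -0.85 for VXN (adjusted p = 1.0). KRT8P3 had 5.3 to 6.057 per 1000 in the 6 libraries without VXN and 4.319 to 4.975 with it, with -0.43 in edgeR (adjusted p = 1.0). None of these rows passes the threshold.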
